A study of Mus musculus with 6 samples.

Results

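A set of 9 complement genes was followed through the stromal cells of the mouse gut, chosen by name from the 33697 genes of the count matrices: C3, C4b, C6, C1s1, C1ra, Cfb, Cfd, Serping1 and Cd55. All 9 were listed in the matrices, 8 entered the tests, and Cfd was too scarce to be tested anywhere. They were chosen by name with earlier results of these libraries known. The cells came from C57BL/6 Flare-TSLP reporter mice, whose Tslp locus also encodes the fluorescent protein tdTomato, and live tdTomato+ cells of the lamina propria were sorted, so the libraries do not stand for cells without the reporter, and no cell was left out here for lacking tdTomato UMIs. The labels name no treatment and no age, and all groups share the reporter allele. The 6 droplet libraries were 2 of proximal small intestine (proximal jejunum), 2 of distal small intestine (distal ileum), 1 of cecum and 1 of large intestine. Each library pooled cells under 3 hashtag antibodies that the labels do not tie to single animals, so the library was the replicate, and p-values measure the spread between libraries.

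Complement is a cascade of plasma and tissue proteins that tags microbes and damaged cells. The proteases C1r and C1s, encoded here by C1ra and C1s1, start the classical pathway. C1s cleaves C4 and C2, and the resulting convertase cleaves C3, the point on which all pathways meet. Factor B (Cfb) and factor D (Cfd) build the alternative pathway convertase, and C6 is one of the terminal proteins that assemble the membrane attack complex. Serping1 encodes the C1 inhibitor, which inactivates C1r and C1s, and Cd55 encodes decay-accelerating factor, a membrane protein that takes convertases apart. The liver makes most complement of the plasma, and fibroblasts, endothelium and macrophages are known local sources.

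Cells were sorted into classes by counting detected marker genes, none of them a complement gene, and each class is named for the markers it resembles. Of 91122 cells kept, 85179 passed exactly 1 lineage list, with 10080 to 17778 in each library. Fibroblast-like cells numbered 9374 to 16589 in the small intestinal libraries and 9373 and 11822 in large intestine and cecum. Among them, trophocyte-like cells (markers such as Grem1, Ackr4 and Cd34) made up 53.2% to 69.4% in small intestine but 5.37% in cecum and 5.76% in large intestine. SEMF-like cells, for subepithelial myofibroblasts (markers such as Procr, Agt and Frzb), numbered 834 to 1696 in small intestine, 2738 in cecum and 1498 in large intestine. Universal fibroblast-like cells carried at least 4 of Pi16, Dpp4, Ly6c1, Anxa3, Sema3c and Penk. Adamdec1/Vwc2 fibroblasts carried at least 2 of Adamdec1, Vwc2, Hapln1 and Fgf7. Lymphatic endothelial-like cells carried at least 4 of a list of 6 markers that held Prox1 and Lyve1. The summed level of the trophocyte list was 2436 to 2543 CPM (UMIs per 1000000 UMIs of the class) in trophocyte-like cells of the small intestine and 106 to 202 in SEMF-like cells. The SEMF list was at 1849 to 2676 in SEMF-like cells and 34.7 to 60.9 in trophocyte-like cells. The gates used these same lists, so this separation was set by the gates and does not test the names. Total counts were 109675337 to 206827504 UMIs per library, and 0.323% to 0.609% of the cell barcodes of the smaller library of a pair were shared between libraries.

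For C3 and C4b, central components, and for C6, which went against the other members between SEMF-like and trophocyte-like cells, the 200 bases before the annotated start are given from the GRCm39 reference, 5′ to 3′ on the gene's strand. Capitals mark a match to any of 5 short motifs, a GAS-type TTCNNNGAA, an ISRE-type TTTCNNTTTC, an NF-kB-type GGGANNTTCC, CCAAT and TATAAA, searched on both strands.
C3, chr17:57535156-57535355, minus strand: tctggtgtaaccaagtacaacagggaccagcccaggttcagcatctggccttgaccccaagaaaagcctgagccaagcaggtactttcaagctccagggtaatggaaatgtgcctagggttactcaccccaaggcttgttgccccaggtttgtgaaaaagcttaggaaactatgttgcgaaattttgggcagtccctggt
C4b, chr17:34962913-34963112, minus strand: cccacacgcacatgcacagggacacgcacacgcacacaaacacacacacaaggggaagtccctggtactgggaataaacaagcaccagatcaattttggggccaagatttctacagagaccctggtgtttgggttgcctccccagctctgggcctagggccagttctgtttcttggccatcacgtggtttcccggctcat
C6, chr15:4756325-4756524, plus strand: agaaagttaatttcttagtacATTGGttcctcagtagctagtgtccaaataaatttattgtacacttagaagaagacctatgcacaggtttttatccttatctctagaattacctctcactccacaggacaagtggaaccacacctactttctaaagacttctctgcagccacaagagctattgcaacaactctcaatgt
Only the C6 window held a match among these 3, a CCAAT on the opposite strand 179 to 175 bases before the start. Over 21757 promoter windows of the same length, CCAAT was found in 32.3%, TATAAA in 9.57%, the GAS-type motif in 6.14%, the ISRE-type motif in 2.45% and the NF-kB-type motif in 1.11%. Among the other members, Cfb held an NF-kB-type match 66 to 57 bases before its start, and C1ra and Serping1 each held CCAAT, at 51 to 47 and 15 to 11 bases before it. The start was that of the transcript marked canonical in the annotation. For Serping1 and C1s1 it lies inside the gene span given below. A match is a run of letters and not a measured site. In the same annotation, C3 lies on chromosome 17 (57510964 to 57535155, minus strand), as do C4b (34947354 to 34962912) and Cfb (35074852 to 35081559), both also on the minus strand. C6 lies on chromosome 15 (4756525 to 4844580, plus strand), Serping1 on chromosome 2 (84595705 to 84620873, minus) and Cd55 on chromosome 1 (130366469 to 130390926, minus). C1ra (124489364 to 124500402, plus) and C1s1 (124507297 to 124559389, minus) are neighbors on chromosome 6, and Cfd lies on chromosome 10 (79726668 to 79728496, plus).

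Levels in CPM were summed over a class in a library, and they are compared between cells for 1 gene and not between genes. All members but Cfd were measured in fibroblast-like cells of every library. Cfd gave few UMIs. The plot of levels by class shows each library.

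**Figure D1:**
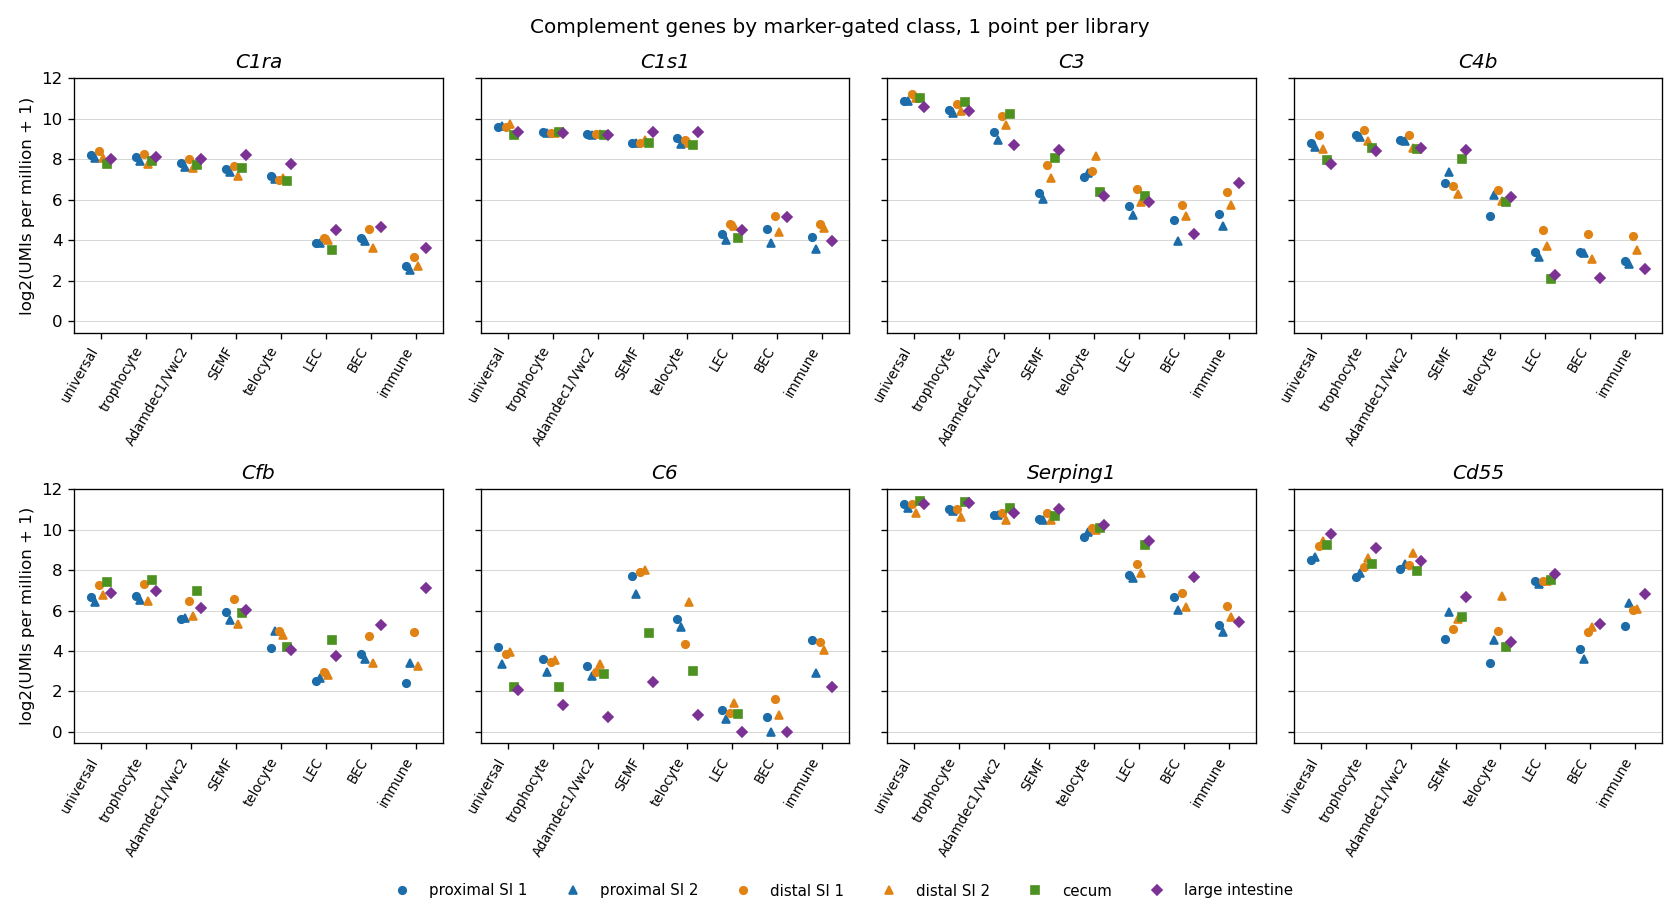
Level of each of the 8 tested members, as log2(CPM + 1), by marker-gated cell class, with 1 point for each library in which the class was measured (SEMF, subepithelial myofibroblast-like; LEC and BEC, lymphatic and blood endothelial-like). C3 sat lower in SEMF cells than in trophocytes in each small intestinal library, and C6 sat higher in SEMF cells than in any other class there.

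The first question was which sorted stroma carried these transcripts, and fibroblast-like cells were set against lymphatic endothelial-like cells of the same 4 small intestinal libraries with a term for the library. All 8 tested members were higher in fibroblast-like cells, where 39.4% of 18151 genes were called higher and 35.3% lower. The proteases differed strongly. C1ra was at 250.1, 217.8, 291.6 and 197.9 CPM in fibroblast-like cells (proximal 1 and 2, distal 1 and 2) and at 13.5, 13.7, 16.2 and 15.3 in lymphatic endothelial-like cells, and the classes did not overlap. Its log2 change was 3.95 (SE 0.11, adjusted p = 1.9e-07, edgeR quasi-likelihood test with Benjamini-Hochberg adjustment). C1s1 was 608.1 ± 11.2 against 21.5 ± 5.38 (SD, n = 4 libraries), a log2 change of 4.82. C4b, the substrate of C1s, had the largest log2 change of the members, 5.28, from 486.2 ± 117.1 against 12.9 ± 6.03 CPM. C3 differed by 4.29, C6 by 5.16 and Cfb by 3.87 on the log2 scale, and with a stricter gate C6 differed by 3.55 (adjusted p = 1.1e-05, edgeR). Serping1 differed by 2.91, and its level in lymphatic endothelial-like cells was 193.4 to 309.4 CPM. Blood endothelial-like cells had lower Serping1, 64.8 to 117.7, and the ranges of the 2 endothelial classes did not overlap.

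Cd55 was the exception in size. It was at 181.4, 210.0, 278.2 and 328.7 CPM in fibroblast-like cells and at 177.2, 156.8, 174.7 and 177.5 in lymphatic endothelial-like cells. Every library was higher in fibroblast-like cells, by 0.46 on the log2 scale (SE 0.14, adjusted p = 0.017, edgeR). Without distal small intestine replicate 1 the adjusted p was 0.065, and without distal small intestine replicate 2 it was 0.058 (edgeR). Blood endothelial-like cells held Cd55 at 11.3 to 35.7 CPM, so the endothelial classes stood apart for this membrane regulator too. The median log2 change of the 8 members was 4.12, beside 0.06 over all genes tested. Over the 32 other complement genes tested it was 0.65. The members were chosen with earlier results of these libraries known, so their median does not stand for complement genes at large.

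Free RNA is counted in droplets whatever the cell, and its makeup was read from barcodes with at most 100 UMIs. C3 was at 716.5 to 1758 CPM there, and lymphatic endothelial-like cells held 5.04% to 6.44% of that level in the small intestine. C6 in those cells stood at 3.90% to 5.08% of its free RNA level, C1s1 at 3.18% to 4.61% and C4b at 2.01% to 3.30%. Cd55 stood at 74.6% to 138.2% and Serping1 at 16.1% to 21.5%, above the other members, and Cfb and C1ra reached 10.6% and 10.99% in their highest library. The share of lymphatic endothelial-like cells with at least 1 UMI was 19.1% to 41.1% for C3 and 0.379% to 1.01% for C6, at median depths of 5376 to 6506 UMIs per cell. With 10% of the UMIs of each class taken as free RNA and subtracted, C1s1, C3, C4b and C6 came to 0 in lymphatic endothelial-like cells. That outcome was set by the choice of 10%, since each of them stood below 10% of its free RNA level there. The 10% was an assumed share and was not measured. It took away more C4b than these cells held, as their whole C4b was 2.01% to 3.30% of its free RNA level. Values after this subtraction are therefore not corrected levels. With the subtraction, Serping1 differed by 4.09 (adjusted p = 2.3e-05, edgeR) and Cd55 by 0.59 (adjusted p = 0.016, edgeR).

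Within the fibroblasts, the second comparison set SEMF-like cells against trophocyte-like cells of the same libraries. In all, 7 members were lower in SEMF-like cells and C6 alone was higher, where 28.4% of 16594 genes were called higher and 30.7% lower. C6 was at 208.8, 111.4, 240.5 and 257.5 CPM in SEMF-like cells and at 10.96, 6.86, 9.91 and 10.6 in trophocyte-like cells. The lowest SEMF-like library stood far above the highest trophocyte-like one. The log2 change was 4.14 (SE 0.12, adjusted p = 3.3e-06, edgeR). At least 1 C6 UMI was found in 42.7% to 65.2% of SEMF-like cells and in 6.04% to 8.32% of trophocyte-like cells. After thinning each cell to 2500 UMIs the shares were 19.6% to 38.4% and 1.64% to 2.55%, beside 0.120% to 0.428% in lymphatic endothelial-like cells.

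The central components went the other way. C3 was at 1407, 1272, 1700 and 1320 CPM in trophocyte-like cells and at 80.4, 65.6, 209.7 and 136.2 in SEMF-like cells. The log2 change was -3.90 (SE 0.25, adjusted p = 4.1e-05, edgeR), and the classes did not overlap. In SEMF-like cells C3 was 1.57 to 2.37 times its level in lymphatic endothelial-like cells of the same library and 7.94% to 15.3% of its free RNA level, and the part of free RNA in this low level was not tested apart. With the same subtraction, both proximal SEMF-like libraries came to 0 and the fitted change was -7.83, which is then no bound. The highest 10% of SEMF-like cells held 64.0% to 78.5% of the C3 UMIs, against 27.4% to 30.1% in trophocyte-like cells. Such a share rises as UMIs per cell fall. C3 was far scarcer in SEMF-like cells, so the shares of the classes cannot be compared as a measure of spread. The highest count in a single cell was 115 C3 UMIs among SEMF-like and 189 among trophocyte-like cells.

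C4b followed the same order, with 591.0, 549.8, 709.9 and 481.6 CPM in trophocyte-like cells and 114.1, 167.3, 101.5 and 77.9 in SEMF-like cells. Its log2 change was -2.60 (SE 0.18, adjusted p = 6.1e-05, edgeR). The difference in Cd55 was of like size, -3.01 (SE 0.21, adjusted p = 6.2e-05, edgeR), from 275.1 ± 81.5 CPM in trophocyte-like to 40.7 ± 15.8 in SEMF-like cells (SD, n = 4). SEMF-like Cd55 was below that of lymphatic endothelial-like cells in each of these libraries, at 0.132 to 0.377 of its level. SEMF-like C4b stood at 13.7% to 44.2% of its free RNA level and Cd55 at 13.9% to 40.8%. With 10% of free RNA subtracted the changes were -3.49 for C4b (adjusted p = 0.0013, edgeR) and -3.97 for Cd55 (adjusted p = 0.00085, edgeR).

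The proteases and the C1 inhibitor differed less between these classes. C1ra changed by -0.80 and C1s1 by -0.71 on the log2 scale, with no overlap between classes for either. Cfb changed by -1.17 and Serping1 by -0.55 (adjusted p = 0.0021, edgeR), and the ranges of their levels overlapped although each library was lower in SEMF-like cells. Serping1 was at 1550.6 to 2092 CPM in trophocyte-like and at 1433 to 1802 in SEMF-like cells. Leaving out each library in turn changed none of these 8 calls.

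**Figure D2:**
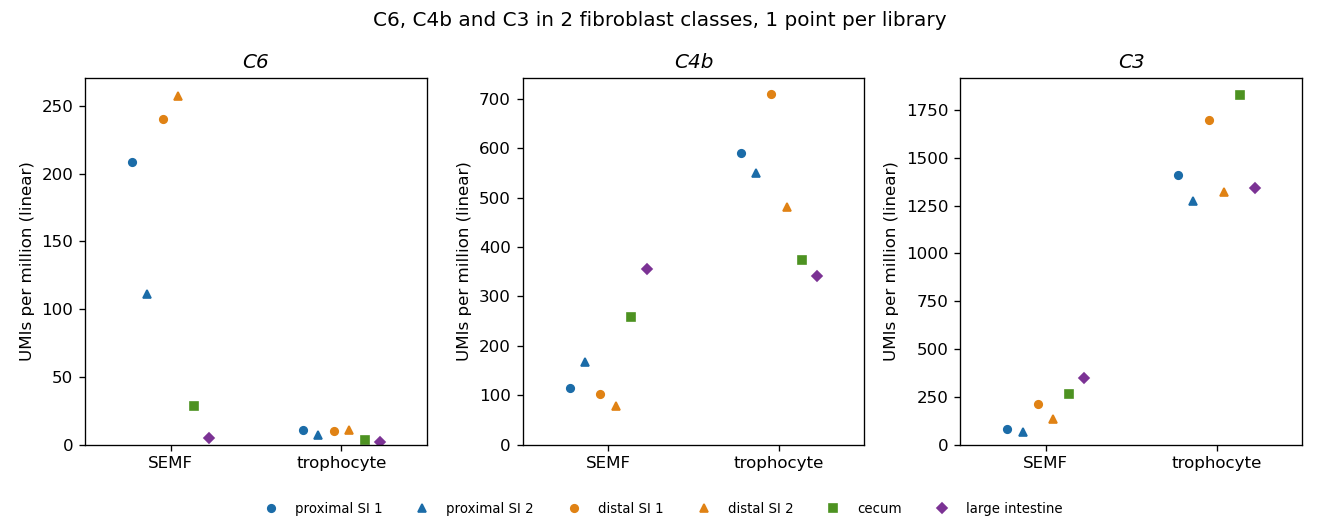
Levels of C6, C4b and C3 in CPM (linear axes that start at 0) in SEMF-like and trophocyte-like cells, with 1 point for each of the 6 libraries. In the 4 small intestinal libraries C6 was 111.4 to 257.5 in SEMF cells against 6.86 to 10.96 in trophocytes, and C3 and C4b stood the other way round.

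Universal fibroblast-like cells were set against trophocyte-like cells next, where 12.7% of 15793 genes were called higher and 11.2% lower. Cells that passed both of these lists, and neither the SEMF nor the telocyte list, were counted as universal fibroblast-like. In all, 6 members were higher, C4b was lower and Cfb did not pass (log2 change 0.08, adjusted p = 0.46, edgeR). Cd55 had the largest change, with 359.6, 395.3, 587.4 and 702.4 CPM in universal fibroblast-like cells and 199.2, 232.9, 282.0 and 386.2 in trophocyte-like cells. Each library was higher in universal fibroblast-like cells, while the ranges over libraries overlapped. The log2 change was 0.94 (SE 0.06, adjusted p = 6.8e-07, edgeR). C3 was at 1869, 1868, 2382 and 2090 CPM in universal fibroblast-like cells, above each trophocyte-like library, by 0.58 on the log2 scale. C1s1 rose by 0.38, Serping1 by 0.28 and C1ra by 0.23, and C6 by 0.56 from 9.59 ± 1.87 to 13.7 ± 3.27 CPM (SD, n = 4). C4b was the only member called lower, at -0.35 on the log2 scale. Of the universal fibroblast-like cells, 190 of 272 to 439 of 519 in a library carried just the 4 markers required. With a stricter gate, the C1ra change was -0.03 and the calls of C6 and Serping1 were lost (adjusted p = 0.91 and 0.53, edgeR), and with a looser gate the call of C4b was lost (adjusted p = 0.40, edgeR) and Cfb was called higher, by 0.32 (adjusted p = 0.00018, edgeR). Without the library term the calls of C1ra, C4b, C6 and Serping1 were lost.

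Adamdec1/Vwc2 fibroblasts stood below trophocyte-like cells in 7 members and above them in Cd55, where 11% of 16090 genes were called higher and 13.2% lower. C3 was at 654.6, 491.1, 1124 and 821.2 CPM, a log2 change of -1.01 (SE 0.12, adjusted p = 0.00047, edgeR), and Cfb changed by -0.98. Most of these cells carried just the 2 markers the gate required, from 779 of 920 to 838 of 954 in a library, with 4257 to 8326 fibroblast-like cells 1 marker short. Cells that passed any other fibroblast list were not counted in this class, so trophocyte-like cells could carry its markers too. Its median depth was 6952 to 8288.5 UMIs per cell, below that of trophocyte-like cells in each library (7782 to 10203). The part of the gate order and of depth in these changes was not tested. The other changes were small, from -0.42 for C6 to -0.17 for C1s1, with 0.20 for Cd55. Without proximal small intestine replicate 1, C1s1 lost its call (adjusted p = 0.060, edgeR), and without distal small intestine replicate 1 C6 did (adjusted p = 0.055, edgeR). The Cd55 call was lost without proximal replicate 1, proximal replicate 2 or distal replicate 2 (adjusted p = 0.11, 0.080 and 0.061, edgeR), and with a looser gate C6 changed sign (0.38) and Cd55 lost its call. Without the library term none of the 8 changes passed.

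**Figure D3:**
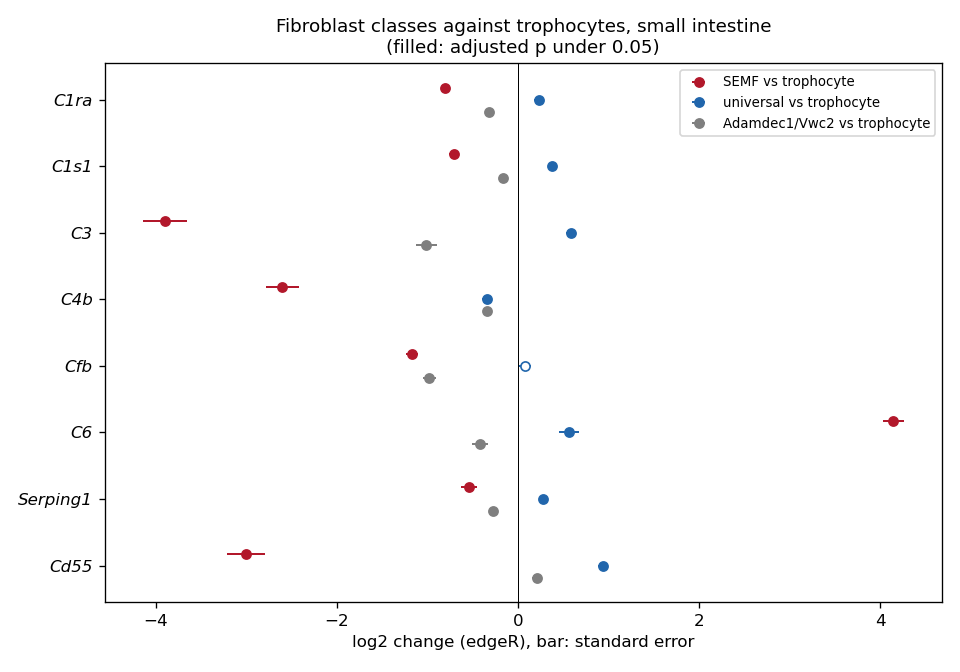
Log2 change of each tested member in SEMF-like, universal fibroblast-like and Adamdec1/Vwc2 fibroblasts, each against trophocyte-like cells of the small intestine, from edgeR, with bars of 1 standard error and filled points for adjusted p under 0.05. C6 is at 4.14 between SEMF cells and trophocytes, with C3 at -3.90, Cd55 at -3.01 and C4b at -2.60 on the other side of 0.

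Ordered by mean level in the small intestine, universal fibroblast-like cells came first for C1ra, C1s1, C3, Cfb, Serping1 and Cd55, trophocyte-like cells for C4b, and SEMF-like cells for C6. For Cfb the means of universal fibroblast-like and trophocyte-like cells were close, 111.8 and 110.2 CPM, and their ranges overlapped. For C3 the ranges of universal fibroblast-like, trophocyte-like, Adamdec1/Vwc2 and telocyte-like cells followed each other without overlap, and those of the neighbors below, telocyte-like (140.5 to 288.1) and SEMF-like (65.6 to 209.7), overlapped. For C6 the telocyte-like cells, gated on at least 3 of 7 markers such as Foxl1 and Wnt5a, came after the SEMF-like cells. They stood at 47.5, 34.9, 19.1 and 85.7 CPM, from 8 to 58 UMIs a library. Cells that also passed the SEMF list were counted among these telocyte-like cells. Immune-like cells followed for C6 at 6.65 to 22.0 CPM, and their range overlapped those of its neighbors in the order. For Serping1 and C1ra, universal fibroblast-like, trophocyte-like, Adamdec1/Vwc2 and SEMF-like cells overlapped each with the next. Smooth muscle-like cells, measured in 3 of these libraries, had C1s1 at 277.8 to 368.3 CPM but C3 at 18.7 to 26.7 and Cd55 at 0.935 to 8.90.

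Cfd, factor D, gave 2, 4, 1 and 3 UMIs in the fibroblast-like cells of the 4 small intestinal libraries, 5 in cecum and 60 in large intestine. In large intestine 56 of the 60 fell in fibroblast-like cells of no named class, at 3.40 CPM of that class. Lymphatic endothelial-like, blood endothelial-like and immune-like cells had no Cfd UMI in any library where they were measured. Factor D is known as an adipocyte product, and free RNA of the large intestine library held it at 0.604 CPM, from 3 UMIs.

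Along the small intestine, no member passed the main edgeR test of distal against proximal libraries, which had no term for the replicate number. In trophocyte-like cells 0.0447% of 17885 genes were called higher and 0.0559% lower in distal libraries, and 1 of the 8 members had an unadjusted p under 0.05. That was Cd55, at 199.2 and 232.9 CPM in proximal and 282.0 and 386.2 in distal libraries, which did not overlap (log2 change 0.63, SE 0.18, adjusted p = 0.52, edgeR). In SEMF-like cells 0% of 14853 genes were called higher and 0% lower, with 2 members under an unadjusted p of 0.05, and DESeq2 called 39 genes. C3 was 80.4 and 65.6 in proximal and 209.7 and 136.2 in distal SEMF-like cells, a log2 change of 1.28 (SE 0.26, adjusted p = 0.80, edgeR). By DESeq2 its adjusted p was 0.0020, and with no filter on low counts C3 changed by 1.25 (adjusted p = 3.6e-06, edgeR). Its level in lymphatic endothelial-like cells was 51.1 and 37.6 in proximal and 90.7 and 57.5 in distal libraries, and in free RNA 1013 and 716.5 against 1758 and 891.9. The distal libraries were higher than the proximal ones in lymphatic endothelial-like cells too, and the part of free RNA in the SEMF-like difference was not tested apart. C4b was the other member, at 114.1 and 167.3 in proximal and 101.5 and 77.9 in distal SEMF-like cells (log2 change -0.62, SE 0.25, adjusted p = 1.00, edgeR). Replicates 1 and 2 carried different hashtag sets in both regions, so a term for the replicate number is also one for the set. With that term Cd55 in trophocyte-like cells passed (log2 change 0.63, adjusted p = 0.025, edgeR), as did C3 in SEMF-like cells (1.25, adjusted p = 7.5e-07, edgeR), and the other members did not. In trophocyte-like cells without that term, Cd55 also passed without distal replicate 1 (0.79, adjusted p = 0.045, edgeR) and Cfb without distal replicate 2 (0.74, adjusted p = 0.047, edgeR).

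Cecum and large intestine had 1 library each and were joined against the 4 small intestinal libraries, so the difference between these 2 organs entered the spread. Both carried the hashtag set of small intestinal replicates 1, and neither carried that of replicates 2. The fit had no term for the set, and the labels do not say whether a set marks shared animals or a batch. Over all fibroblast-like cells 16% of 19582 genes were called higher and 14.6% lower in large bowel, and 2 members were lower. C4b was at 247.8 in cecum and 201.0 in large intestine, below all 4 small intestinal libraries (364.5 to 643.5), with a log2 change of -1.08 (SE 0.29, adjusted p = 0.030, edgeR). C6 was at 10.5 and 1.69 CPM against 23.3 to 60.7, with a log2 change of -2.51 (SE 0.75, adjusted p = 0.041, edgeR). The C4b call was lost without proximal replicate 1 or 2, cecum or large intestine (adjusted p = 0.072, 0.056, 0.067 and 0.13, edgeR). The C6 call was lost without any 1 of the libraries other than cecum (adjusted p = 0.054 to 0.083, edgeR), with a stricter gate (adjusted p = 0.059, edgeR) and with libraries of 1 hashtag set only (adjusted p = 0.13, edgeR). The C6 change was -4.42 without cecum and -1.71 without large intestine. The makeup of the fibroblasts moved with these values, as trophocyte-like cells fell from 53.2% or more to 5.76% or less, and in the summed cells a different mixture and a different level of C4b per cell cannot be told apart. SEMF-like cells made up 23.2% of the fibroblasts in cecum and 16.0% in large intestine, against 5.03% to 17.8% in small intestine. Telocyte-like cells made up 5.24% and 35.2% against 0.332% to 1.10%. The part of the makeup in the C6 change was not tested. Trophocyte-like cells held C6 at 3.65 CPM in cecum (17 UMIs) and 1.55 in large intestine (8 UMIs), below the small intestinal range of 6.86 to 10.96.

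Within SEMF-like cells the picture differed, where 21.2% of 15644 genes were called higher and 17.4% lower in large bowel. C4b was at 258.4 in cecum and 356.0 in large intestine, against 77.9 to 167.3 in small intestine. Its log2 change was 1.60 (SE 0.27, adjusted p = 0.0044, edgeR), and the groups did not overlap. C3 was at 265.3 and 347.5 against 65.6 to 209.7, a log2 change of 1.496 (SE 0.42, adjusted p = 0.027, edgeR), again without overlap. In lymphatic endothelial-like cells C3 stood at 71.0 in cecum and 57.6 in large intestine, within the range of the small intestine (37.6 to 90.7).

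C6 fell in SEMF-like cells, from 111.4 to 257.5 CPM in small intestine to 28.6 in cecum and 4.49 in large intestine. The log2 change was -3.41 (SE 0.72, adjusted p = 0.0096, edgeR), and cecum and large intestine did not overlap with small intestine. At least 1 C6 UMI was found in 14.6% of 2738 SEMF-like cells in cecum and 2.87% of 1498 in large intestine. C1ra was called higher, by 0.68 (SE 0.21, adjusted p = 0.034, edgeR), although its levels of 192.0 and 298.8 overlapped the small intestinal range of 145.9 to 203.7. Cd55 (log2 change 1.07, adjusted p = 0.051), C1s1 (0.43, 0.078), Serping1 (0.46, 0.10) and Cfb (0.22, 0.62) did not pass in edgeR.

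The SEMF gate held a different mixture in large bowel. Cells that also passed the telocyte list were not counted as SEMF-like. Telocyte-like cells made up 5.24% of the fibroblasts in cecum and 35.2% in large intestine, against 0.332% to 1.10% in small intestine. Cells with both Ccl8 and Postn were 41.7% of SEMF-like cells in cecum and 37.8% in large intestine, against 0.590% to 1.18% in small intestine. With these cells left out, an alternative chosen after seeing the data, C4b changed by 1.40 (adjusted p = 0.0069), C3 by 1.35 (adjusted p = 0.036) and C6 by -3.66 (adjusted p = 0.012, all edgeR), and C1ra lost its call (0.54, adjusted p = 0.065). The universal fibroblast list in SEMF-like cells summed to 285.6 to 560.4 CPM in large bowel against 52.6 to 112.6 in small intestine, and the macrophage list to 244.7 to 437.2 against 85.1 to 123.5. The trophocyte list was at 166.9 to 193.2 against 105.6 to 202.0, and the part of these lists in the C3 and C4b changes was not tested.
The C4b and C6 calls held in all 17 alternatives run for this comparison, leaving out each library included, with a C4b change of 2.28 when 10% of free RNA was subtracted, and the C6 change was -5.34 without cecum and -2.64 without large intestine. The C3 call was lost without proximal replicate 1, distal replicate 2, cecum or large intestine (adjusted p = 0.066, 0.055, 0.075 and 0.11, edgeR), with a stricter gate (log2 change 1.09, adjusted p = 0.051, edgeR), with 1 hashtag set only (1.23, adjusted p = 0.086, edgeR) and with 10% of free RNA subtracted (adjusted p = 0.11, edgeR). With that subtraction the fitted C3 change was 3.63, against proximal sums at 0, and is no bound. That of C1ra was lost without proximal replicate 1 or 2, distal replicate 2 or large intestine (adjusted p = 0.076, 0.076, 0.078 and 0.26, edgeR), and with 1 hashtag set only (adjusted p = 0.18, edgeR). The C4b change in SEMF-like cells exceeded that in trophocyte-like cells, whose C4b stood at 373.6 and 341.9 in large bowel against 481.6 to 709.9, with a difference of the 2 changes of 2.18 (SE 0.33, adjusted p = 0.0072, edgeR). Of these trophocyte-like cells, 566 of 635 in cecum and 381 of 540 in large intestine carried just the 3 markers the gate required, against 1693 of 5497 to 2209 of 5077 in small intestine. For C6 the difference was -1.78 (SE 0.46, adjusted p = 0.044, edgeR), and for C3 it was 1.35 (adjusted p = 0.074, edgeR). These differences between the classes were fitted with the main settings only. C6 in trophocyte-like cells of large bowel rested on the few UMIs given above.

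**Figure D4:**
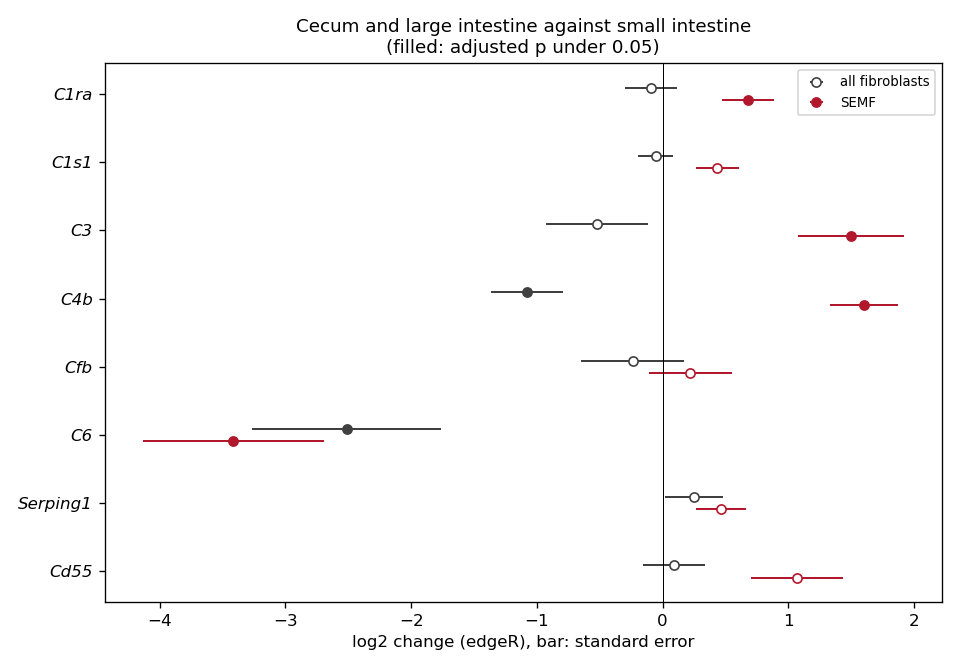
Log2 change of each tested member in cecum and large intestine (1 library each, joined) against the 4 small intestinal libraries, in all fibroblasts and in SEMF cells, with bars of 1 standard error and filled points for adjusted p under 0.05. C4b is at -1.08 in all fibroblasts and at 1.60 in SEMF cells, while C6 is below 0 in both.

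The members also varied together to different degrees across classes and libraries. Over the fibroblast class profiles, Pearson correlations of log2 levels among the 7 tested members other than C6 ran from 0.52 to 0.88, and those of C6 with the others from -0.52 to -0.21. Over the 61 profiles of all classes, endothelial-like and immune-like ones included, the correlations of C6 with the others ran from 0.11 to 0.39. Over the same 61 profiles, the genes most like C3 among 9915 searched were Clec3b (r = 0.94), Ephb2 (0.94) and Ptgfr (0.93). The genes most like C4b were Svep1 (0.98), Loxl1 (0.96) and Fzd1 (0.96), and Zmynd15 (0.81) and Tns3 (0.80) were among those most like C6. C3 was second in the order of likeness for Cfb (0.87), after Npc2 (0.90). For Cd55 the first was Gm15675 (0.97), for C1ra Ms4a4d (0.98), for C1s1 Sdc2 (0.98) and for Serping1 Rcn3 (0.97). Profiles of 1 library share its depth and its animals, so these values are descriptions.

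Of 43 other complement genes, 32 were tested between fibroblast-like and lymphatic endothelial-like cells, and 16 were higher and 7 lower, where 39.4% of all genes tested were called higher and 35.3% lower. C7, the terminal protein that joins C6 in the membrane attack complex, was at 727.2 ± 187.8 CPM in fibroblast-like cells against 12.5 ± 5.52 (SD, n = 4), a log2 change of 5.92. Between SEMF-like and trophocyte-like cells 6 of 25 were higher and 7 lower, near the 28.4% and 30.7% of all genes. There C7 went against C6, with 308.2 ± 153.9 in SEMF-like and 852.6 ± 177.0 in trophocyte-like cells, a log2 change of -1.79. Colec10, a collectin that recognizes sugars, was higher by 4.26 and C5ar1, the receptor of C5a, by 3.91, though the latter stood at only 3.31 ± 1.30 CPM in SEMF-like cells. Masp1, a protease of the lectin pathway, was lower by 4.64 on the log2 scale (0.805 ± 0.862 against 14.5 ± 12.6), as was the scavenger collectin Colec12, by 1.00. C2, the partner of C4b in the classical convertase, was higher by 0.48.

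In large bowel SEMF-like cells 4 of 23 other complement genes were higher and 4 lower, near the 21.2% and 17.4% of all genes. C7 was at 44.3 ± 44.4 CPM (SD, n = 2) against 308.2 ± 153.9 (SD, n = 4). Clu, a soluble regulator of the terminal complex, was higher by 2.82 and Masp1 by 4.16 on the log2 scale. The Masp1 change starts from the very low level in small intestinal SEMF-like cells given above. Among the membrane regulators Cd46 and Cr1l were lower, by -1.09 and -0.52, and Cd59a was higher by 0.81. Over all fibroblast-like cells 6 of 33 were higher and 9 lower, beside 16% and 14.6% of all genes, with C7 changed by -2.51. As for C4b, a different mixture and a different level of C7 per cell cannot be told apart there. The other complement genes were fitted with the main settings only, and no library was left out for them.

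Close copies limit 3 members. In the last 500 bases, where 3′ reads fall, C4b shared 57.7% of its 31-base words with C4a, C1s1 shared 27.4% with C1s2 and C1ra shared 23.4% with C1rb, so their counts are uncertain where reads could be split or dropped. Cd55 shared none with Cd55b, and Cfb overlaps Nelfe and C1s1 overlaps C1rb in the annotation.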

How the data were processed

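Single-cell 3′ libraries of sorted tdTomato+ lamina propria cells were used as the authors deposited them, as raw UMI counts per gene and barcode made with Cell Ranger (8.1.0 per the labels, 8.0.1 in the matrix headers) on mm39 with a tdTomato sequence. The later steps of the authors on doublets and free RNA are not in these counts. A barcode was taken as a cell at 2500 to 40000 UMIs, 1000 to 7500 detected genes and a mitochondrial share below 10%. Cells with several hashtags (8.39% to 13.8%) or passing several lineage lists were left out, and no doublet caller was run. Classes were gated on the number of markers with at least 1 UMI (fibroblast 6 of 8, lymphatic endothelial 4 of 6, trophocyte 3 of 6, SEMF 3 of 7, universal fibroblast 4 of 6, Adamdec1/Vwc2 2 of 4). Members, marker lists and gates were chosen with earlier results of these data known, and gate limits after cells were seen.

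Counts were summed per library and class and tested with edgeR 4.0.16 in R 4.3.3 (quasi-likelihood, TMM, minimum count 10, Benjamini-Hochberg at 0.05 over all genes tested), with a library term between classes. Log2 changes carry TMM scaling, so they can differ from ratios of levels, and the median change over all genes was -0.01 to 0.06. The fit was also run on simulated counts. These held no effect shared by the classes of a library, so they cannot test the library term. Alternatives were limma-voom (limma 3.58.1), DESeq2 1.42.0, RLE scaling, no low count filter, 10% of free RNA subtracted, looser and stricter gates, cells with several hashtags kept, blocks, 1 hashtag set only and each library left out. All 9 members were named throughout, and up to 3 other complement genes a role by level in fibroblasts. Some other genes that the naming rules picked are not reported here. Python 3.11.15 with pandas 2.3.3, numpy 2.4.6, scipy 1.17.1 and matplotlib 3.10.9 made the sums and figures. Positions and promoters came from GRCm39 with GENCODE vM39.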

Additional observations from a re-analysis of the deposited data

Results flagged for a closer look

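Some values stood apart from the other 3 libraries of their class in the small intestine, by Dixon's test at the 95% level. Of 90 groups of libraries tested, 8 did so, and chance gives about 1 in 20. C1s1 in SEMF-like cells was 490.0 CPM in distal small intestine replicate 2 against 447.2 to 453.1 in the others. Serping1 in SEMF-like cells was 1802 in distal small intestine replicate 1 against 1433 to 1450. Cfb was 88.7 in Adamdec1/Vwc2 fibroblasts of distal small intestine replicate 1 against 47.2 to 52.6, and 98.3 in fibroblasts of no named class in that library against 40.1 to 48.2. C6 in fibroblasts of no named class was 29.4 in distal small intestine replicate 2 against 10.9 to 12.8. Cd55 in lymphatic endothelial-like cells was 156.8 in proximal small intestine replicate 2 against 174.7 to 177.5. Cfd in the same library was 0.0565 in SEMF-like cells and 0.274 in universal fibroblast-like cells against 0 in the others, which was 1 UMI each time.

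For 2 members the change from small to large bowel differed between SEMF-like and trophocyte-like cells by a test of the difference itself. That test was chosen after seeing the data and was fitted with the main settings only. C4b changed more by 2.18 on the log2 scale in SEMF-like cells and C6 by -1.78 (edgeR, adjusted over 16556 genes, of which 2367 were called).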

How the results depend on the processing

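The change of each tested member was refitted under every alternative, one choice at a time. All 112 refitted values of SEMF-like against trophocyte-like cells kept their direction and call, as did 110 of 112 for fibroblast-like against lymphatic endothelial-like cells. In the other comparisons 97 to 101 of 112 did between fibroblast classes, 98 to 99 of 112 along the small intestine, and 108 of 128 and 111 of 136 in the large bowel. The causes of the shifts were not tested. Cfd gave 1 to 5 UMIs in fibroblast-like cells of each library but large intestine, too few for a test.

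Genes called between universal fibroblast-like and trophocyte-like cells numbered 3771, 2036 with a stricter gate and 1409 without the library block. With the stricter gate C1ra changed by -0.030 and Cfb by -0.29, and Cfb ran from -0.0050 to 0.11 with 1 library left out and was called at 0.32 with the looser gate (adjusted p = 0.00018, edgeR). For Adamdec1/Vwc2 fibroblasts the 3898 genes became 2280 with a looser gate, 849 without the library block and 2358 to 3300 with 1 library left out, and C6 was at 0.38 with the looser gate. Without the library block all 8 members there lost their calls, and C1ra, C4b, C6 and Serping1 lost theirs in universal fibroblast-like cells.

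Distal against proximal trophocyte-like cells gave 18 genes, 228 by DESeq2, 91 with no filter on low counts, 10 with cells of several hashtags kept, 4 with a looser gate and 43 to 244 with 1 library left out. C1ra was at -0.00035 by limma-voom. With 1 library left out C1ra ran from -0.27 to 0.32, C1s1 from -0.060 to 0.044, C3 from -0.074 to 0.41, C4b from -0.30 to 0.38, Cfb from -0.21 to 0.74, C6 from -0.11 to 0.62 and Serping1 from -0.42 to 0.13. For SEMF-like cells the 0 genes became 39 by DESeq2, 1 with RLE scaling, 231 with no filter on low counts, 4 with 10% of free RNA subtracted, 1 with a looser gate and 0 to 119 with 1 library left out. There C1ra ran from -0.24 to 0.30, Cfb from -0.43 to 0.90, Serping1 from -0.0080 to 0.38 and Cd55 from -0.51 to 0.80, and Cd55 was at 0.13 by limma-voom, 0.048 with cells of several hashtags kept and 0.17 with a stricter gate. The C3 change in SEMF-like cells was called by DESeq2, with no filter, with free RNA subtracted, when both proximal sums were at 0, and with the replicate block.

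Proximal and distal libraries share the numbers 1 and 2. Same-numbered libraries deviated together (r = 0.36 over genes in trophocyte-like and 0.33 in SEMF-like cells), and they share a hashtag set, but the labels do not say that a number or a set marks the same animals or a batch, so the fit without the block was kept. With the replicate block 763 genes were called in trophocyte-like cells, with Cd55 at 0.63 (adjusted p = 0.025, edgeR), and 284 in SEMF-like cells, with C3 at 1.25 (adjusted p = 7.5e-07, edgeR) and Cd55 at 0.079.

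In large bowel the 5988 genes called in fibroblast-like cells became 1673 with 1 hashtag set only and 3093 to 6537 with 1 library left out, when a lone library was assumed to vary like the rest. In these fits C1ra ran from -0.19 to 0.078, C1s1 from -0.11 to 0.021, C3 from -1.33 to 0.0021, Cfb from -0.91 to 0.23 and Cd55 from -0.019 to 0.22. The 6037 genes in SEMF-like cells became 2813 with 1 hashtag set only and 2616 to 6941 with 1 library left out. Cfb there was at -0.17 with 1 hashtag set only and at -0.047 without the cells that held both Ccl8 and Postn. In SEMF-like cells Cd55 passed in 7 of 17 alternatives, Serping1 in 2 and C1s1 in 1.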
